A study of Danio rerio with 4 samples.

Results

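The annexin genes of the zebrafish larva were followed across exposure to PM2.5, the fine fraction of smog particles. They are the 10 genes whose symbols in the deposited table are anxa1a, anxa1b, anxa1c, anxa1d, anxa2a, anxa2b, anxa4, anxa5b, anxa6 and anxa13. They were taken by symbol out of 32520 distinct genes, as a list drawn up with earlier results of these data known, and 7 other annexin genes of the table were used only for comparison. RNA was sequenced from whole larvae of Danio rerio in 2 groups with 2 libraries each. Control larvae were untreated. Between 72 and 120 hours after fertilization, PM2.5 larvae were kept with 12000000 smog particles. No genotype, strain or transgene is named for either group, and the RNA of a group came from 5 to 7 whole larvae, so a library mixes all tissues. Separate clutches or exposures behind the libraries of a group are not stated in the labels. The p-values below therefore set a group difference only against the spread of these libraries, which may be technical. For each gene, the test takes part of that spread from the other genes.

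Annexins are proteins of the cytoplasm that bind acidic membrane lipids when calcium rises, through a fold that is repeated along the protein. At an injured cell membrane, where calcium flows in, they gather within seconds and help to close the wound. In mammals annexin A1 also leaves cells and damps inflammation through formyl peptide receptors, annexin A2 works in a complex with the small calcium-binding protein S100A10, and annexin A5 coats membranes that expose phosphatidylserine, as dying cells do. Zebrafish carry several copies of some of these genes, among them 4 for annexin A1.

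The values are TPM, a gene's read number divided by its length and scaled to the same total in every library, so levels of different genes can be compared. Since all libraries have the same total, a strong rise of some transcripts pushes the TPM of others down. A strong fall of abundant transcripts pushes the TPM of others up. From the steps between TPM values, the whole reads behind them could be worked out, up to a factor common to a gene's libraries. They came to approximately 18062754 and 14072636 reads in the control libraries and 22567623 and 14525827 in the PM2.5 libraries, and each annexin value rested on at least 91 reads. Differences were tested with limma on log2(TPM + 1) over the 20874 genes whose mean reached 1 TPM, and all 10 annexins were among them. A gene was called changed at an adjusted p under 0.05 (Benjamini-Hochberg over all tested genes). With 2 libraries against 2, an exact permutation test of a single gene cannot give a p below 0.333, so none is given. Markers of liver, gut, skeletal muscle, nervous system, epidermis and endothelium were all detected, as the label of whole larvae requires.

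Among the 10 annexins 3 rose with PM2.5 (anxa1b, anxa5b and anxa1d), 1 fell (anxa6) and 6 did not pass the test. Of all tested genes 8.46% were called higher and 2.62% lower. The median log2 fold change of the annexins was 0.08, against 0.07 over all tested genes, with members on both sides of it. The libraries of the groups did not overlap for 9 annexins, with 6 higher and 3 lower in PM2.5. In all tested genes such separation was found in 56.3%, as higher in 36.6% and as lower in 19.7%, so separation alone is common in these data. Quantile normalization moved the median of all tested genes by -0.11 on the log2 scale, and the smaller changes below are to be read against that shift. Among the calls, higher genes made 76.4% as deposited, 61.2% with TMM-type rescaling and 57.9% with quantile normalization. With any 1 library left out, fewer annexins were called higher, and so were fewer of all tested genes. The fall of anxa6 was not called when either control was left out, where fewer of all tested genes were called lower too.

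**Figure D1:**
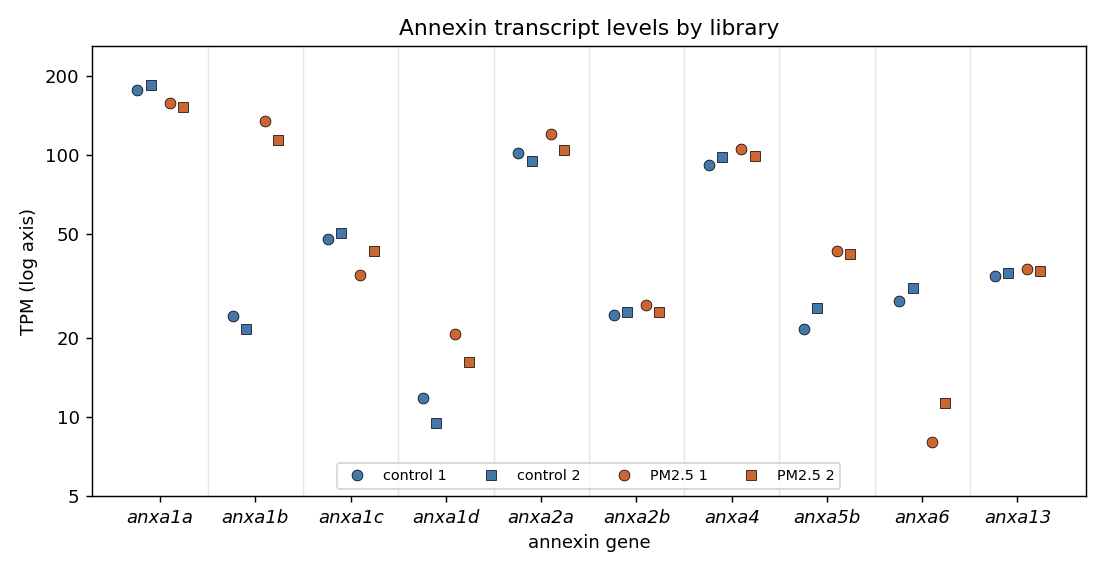
TPM of each annexin in each library, on a log axis. Each point is 1 library, blue for control and orange for PM2.5, with a circle for replicate 1 and a square for replicate 2. The PM2.5 points of anxa1b (134 and 114 TPM) lie far above its control points (24.4 and 21.6 TPM), and those of anxa6 (8.07 and 11.3 TPM) far below (27.8 and 31.0 TPM).

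The annexin A1 genes did not move together. All 4 lie on chromosome 5 in the deposited table. The gene that changed most was anxa1b (ENSDARG00000100095). It stood at 24.4 and 21.6 TPM in control replicates 1 and 2 and at 134 and 114 TPM in PM2.5 replicates 1 and 2, from 441, 297, 3008 and 1614 reads. Both exposed libraries were far above both controls. The mean went from 23.0 ± 1.96 TPM to 124 ± 14.5 TPM (SD, n = 2), a ratio of 5.38. In the limma fit its log2 fold change was 2.38 (SE 0.11, 95% confidence interval 2.11 to 2.64) with an adjusted p of 0.00018, the 113th largest rise of all tested genes. The rise passed the test under all 11 alternative settings, where it ranged from 2.25 to 2.5. Among the 10 annexins no other kept a call whichever library was left out.

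The annexin A1 gene with the lowest level, anxa1d (ENSDARG00000098481), rose less. Its values were 11.8 and 9.47 TPM in controls and 20.8 and 16.2 TPM in exposed larvae. Its mean went from 10.6 ± 1.63 to 18.5 ± 3.24 TPM (SD, n = 2). The log2 fold change was 0.74 (SE 0.17), just inside the threshold with an adjusted p of 0.045 in the limma test. This call held in none of the fits on 3 libraries (adjusted p 0.10 to 0.27), nor did it hold with TMM-type rescaling (0.082), quantile normalization (0.096) or no filter on low values (0.081).

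The other annexin A1 genes lay on the lower side. The most abundant annexin, anxa1a (ENSDARG00000026726), had 177 and 185 TPM in controls and 157 and 152 TPM in exposed larvae. Its exposed libraries lay below its controls without overlap, but the log2 fold change of -0.22 (95% confidence interval -0.36 to -0.09) missed the limma threshold with an adjusted p of 0.056. It passed as lower with TMM-type rescaling (-0.31) and with quantile normalization (-0.33). With a mean of at least 5 TPM and with voom on the reads it also passed, at -0.22 in both. The values of anxa1c (ENSDARG00000104359) were 47.6 and 50.5 TPM in controls and 34.9 and 43.1 TPM in exposed larvae. Its log2 fold change was -0.33 (-0.62 to -0.05) with a limma adjusted p of 0.14. It was -0.18 with PM2.5 replicate 1 left out and -0.48 with PM2.5 replicate 2 left out, and voom on the reads called it lower (-0.37, adjusted p 0.049).

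The make-up of the annexin A1 transcripts therefore differed between the groups, and such a share does not depend on how libraries are scaled to each other. Of the summed TPM of the 4 genes, anxa1b made 9.36% and 8.12% in the controls and 38.7% and 35.0% in the exposed libraries. The share of anxa1a was 67.9% and 69.4% in controls and 45.3% and 46.8% after exposure. The ratio of anxa1b to anxa1a was 0.138 and 0.117 in controls and 0.855 and 0.747 in exposed larvae. Together the 4 genes reached 261 and 266 TPM in controls and 347 and 325 TPM in exposed larvae.

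In the order of genes of a RefSeq table (assembly GRCz12tu, not the build of the deposited data), anxa1d, anxa1c and anxa1b are neighbouring protein-coding genes, while anxa1a lies elsewhere on the chromosome. The rising genes anxa1b and anxa1d thus stand on either side of anxa1c, which did not rise. The nearest protein-coding genes outside this row with a value in the table were pmpca, which encodes a mitochondrial processing peptidase subunit, next to anxa1b, and ptgs1, which encodes a cyclooxygenase, on the side of anxa1d. Their log2 fold changes were 0.048 (limma adjusted p = 0.80) and 0.44 (adjusted p = 0.14). Over all 10 annexins, 16 distinct neighbours of this kind were found, a search added after the values of the annexins were seen. Of these 13 were tested in the same limma fit and none was called changed, against 11.1% of all tested genes. An unadjusted p under 0.05 was found for 3 of the 13, against 5669 of all 20874 tested genes. Voom on the reads called 1 of the 13 lower. So few neighbours cannot be told apart from the share over all genes.

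**Figure D2:**
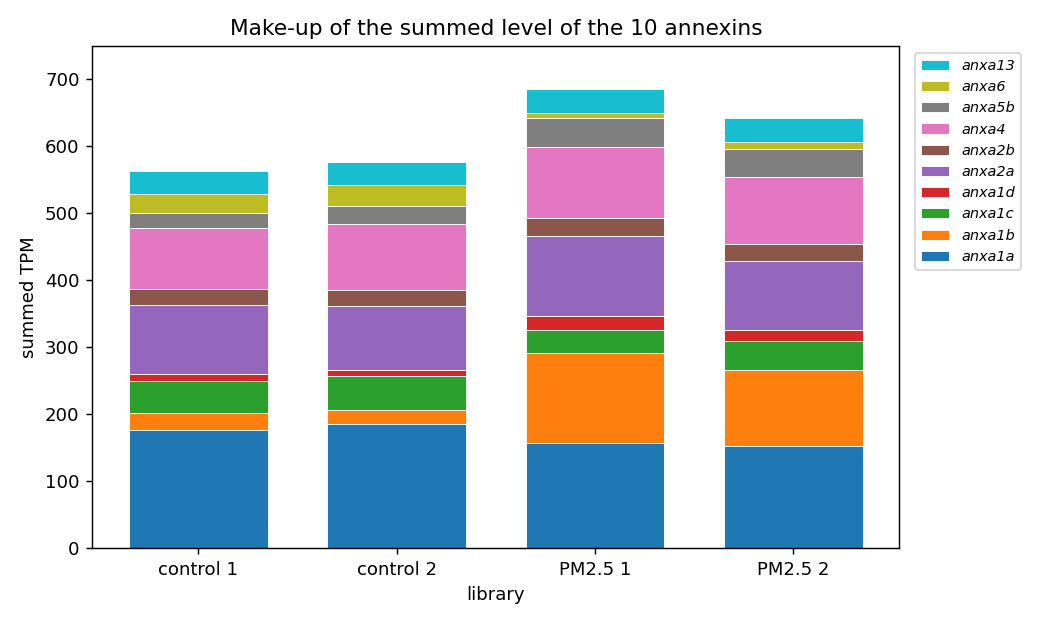
Summed TPM of the 10 annexins in each library as stacked bars, 1 colour per gene, with the axis starting at 0. The anxa1b segment takes 4.34% and 3.75% of the bar in controls and 19.6% and 17.7% in exposed larvae, while the anxa6 segment goes from 4.94% and 5.37% to 1.17% and 1.76%.

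The only annexin called lower was anxa6 (ENSDARG00000013335, chromosome 14). Annexin A6 is a long member of the family with a duplicated core, and in zebrafish muscle fibres the protein gathers at the injured membrane. Its values were 27.8 and 31.0 TPM in controls and 8.07 and 11.3 TPM in exposed larvae, from 642, 544, 231 and 205 reads. The groups were well apart, although the exposed libraries differed 1.40-fold from each other. The mean fell from 29.4 ± 2.27 to 9.69 ± 2.29 TPM (SD, n = 2). In the limma fit the log2 fold change was -1.52 (SE 0.17, 95% confidence interval -1.94 to -1.11) with an adjusted p of 0.0041, the 75th largest fall of all tested genes. Leaving out control replicate 1 or control replicate 2 ended the call, at adjusted p-values of 0.077 and 0.084 and log2 fold changes of -1.60 and -1.45.

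Transcripts of skeletal muscle moved in the same direction as anxa6, by less. Of 6 muscle markers 5 fell in the same limma test, against 2.62% of all tested genes. The log2 fold changes of the 6 lay between -0.57 and -0.12. Voom on the reads could not include actc1b and mylpfa, for which no whole reads were found. Of the other muscle markers it called 3 lower, against 1211 of all 20790 genes in that fit. The summed level of the 6 muscle markers was 53939.6 and 52035 TPM in controls and 43823 and 42245 TPM in exposed larvae. Their part in the anxa6 result was not tested. Falls were not limited to muscle markers. In the same limma test 6 of 16 epidermis and periderm markers, 3 of 9 gut markers and 2 of 6 liver markers fell. Of the same lists 8, 1 and none rose. In RNA of whole larvae, fewer cells of a type and less RNA per cell cannot be told apart. The dysferlin gene dysf, whose protein acts with annexin A6 in membrane repair of zebrafish muscle, was named after its values were seen. It had 3.28 and 4.04 TPM in controls and 1.78 and 1.93 TPM in exposed larvae, with a log2 fold change of -0.70 and a limma adjusted p of 0.11. This was the lowest log2 fold change among the 23 tested membrane repair genes described below. Of these 23 genes, 12 rose and none fell in the limma test, with a median log2 fold change of 0.50, so dysf does not stand for the list.

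The annexin A5 gene anxa5b (ENSDARG00000016470, chromosome 1) rose. It stood at 21.6 and 26.1 TPM in controls and at 43.1 and 41.9 TPM in exposed larvae, from 438, 402, 1083 and 668 reads. Both exposed libraries were above both controls, and they were closer to each other than the controls were. The mean went from 23.9 ± 3.18 to 42.5 ± 0.801 TPM (SD, n = 2), a ratio of 1.78. The log2 fold change in the limma fit was 0.81 (SE 0.11, 95% confidence interval 0.54 to 1.09) with an adjusted p of 0.0089. The adjusted p was 0.080 with control replicate 1 left out, 0.11 with PM2.5 replicate 1 left out and 0.088 with PM2.5 replicate 2 left out, so these fits ended the call. In controls anxa5b lay below anxa6, with a ratio of 0.777 and 0.841, and in exposed larvae above it, with a ratio of 5.34 and 3.71.

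The annexin A2 genes did not pass the test. The more abundant copy, anxa2a (ENSDARG00000003216, chromosome 25), had 102 and 94.6 TPM in controls and 120.1 and 104 TPM in exposed larvae. The exposed libraries were only just above the controls, and the log2 fold change was 0.18 (95% confidence interval -0.03 to 0.40, limma adjusted p = 0.25). The second copy, anxa2b (ENSDARG00000053625, chromosome 7), had 24.6 and 25.1 TPM in controls and 26.8 and 25.1 TPM in exposed larvae, and its groups overlapped. Its log2 fold change was 0.06 (-0.18 to 0.29), and its sign turned under both rescalings. Within a library anxa2a was between 3.76 and 4.48 times as abundant as anxa2b, and the ranges of the groups for this ratio overlapped.

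The genes of the epithelial annexins A4 and A13 did not pass the test. In mammals annexin A4 is found in secretory and absorptive epithelia, and annexin A13 in the epithelium of gut and kidney. The values of anxa4 (ENSDARG00000036456, chromosome 10) were 91.5 and 98.4 TPM in controls and 105 and 99.3 TPM after exposure. The log2 fold change was 0.11 (95% confidence interval -0.07 to 0.28, limma adjusted p = 0.40). Those of anxa13 (ENSDARG00000013976, chromosome 24) were 34.6 and 35.5 TPM in controls and 36.6 and 36.0 TPM after exposure. The log2 fold change was 0.049 (-0.16 to 0.25, limma adjusted p = 0.76). The exposed libraries of both genes were slightly above their controls, and both signs turned after quantile normalization. The intervals leave room for changes of up to 0.28 and 0.25 on the log2 scale.

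**Figure D3:**
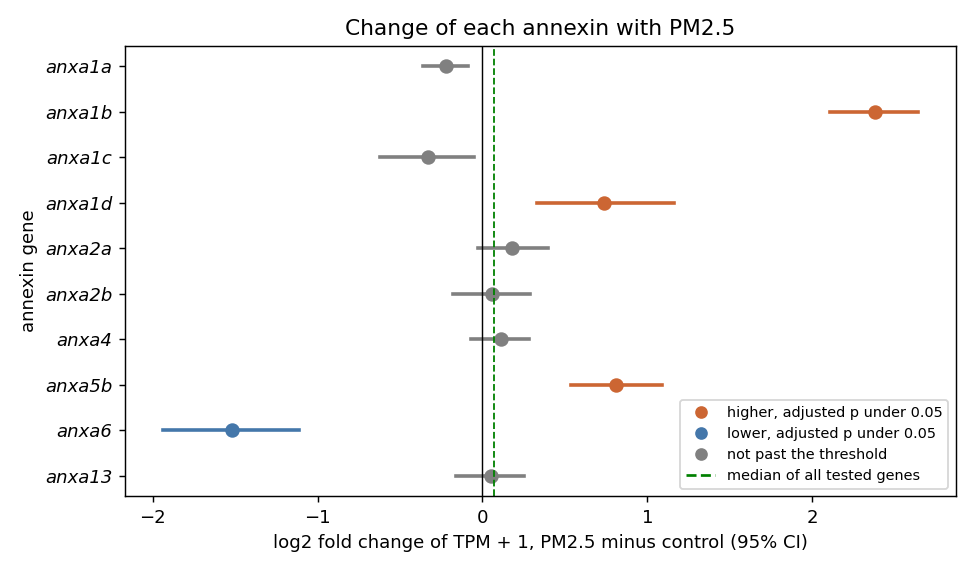
Log2 fold change of each annexin (PM2.5 minus control, on log2 of TPM + 1) with its 95% confidence interval, orange for called higher, blue for called lower and grey for not past the threshold. The dashed line is the median of all tested genes. The range runs from -1.52 for anxa6 to 2.38 for anxa1b, and the intervals of anxa2a, anxa2b, anxa4 and anxa13 include 0.

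The order of the annexins by level changed accordingly. In controls anxa1a led with a mean of 181 TPM, followed by anxa2a (98.1) and anxa4 (94.9), whose ranges overlapped. Then came anxa1c (49.1), anxa13 (35.1) and anxa6 (29.4), each clear of its neighbours. Next were anxa2b (24.9), anxa5b (23.9) and anxa1b (23.0), where anxa2b was above anxa1b in both controls. The range of anxa5b overlapped those of both, and its place differed between the controls. Lowest was anxa1d at 10.6 TPM. In exposed larvae anxa1a was still first at 155 TPM, but anxa1b stood second at 124 TPM. Its range overlapped that of anxa2a (112), which in turn overlapped that of anxa4 (102). Within each exposed library the order of these genes was the same, anxa1b above anxa2a above anxa4. Below them anxa5b (42.5), anxa1c (39.0) and anxa13 (36.3) overlapped from neighbour to neighbour, followed by anxa2b (25.9) and anxa1d (18.5), and anxa6 was last at 9.69 TPM. The summed level of the 10 annexins was 563 and 577 TPM in controls and 687 and 643 TPM in exposed larvae. The mean of anxa1b alone went from 23.0 to 124 TPM, a larger step than that of the sum.

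**Figure D4:**
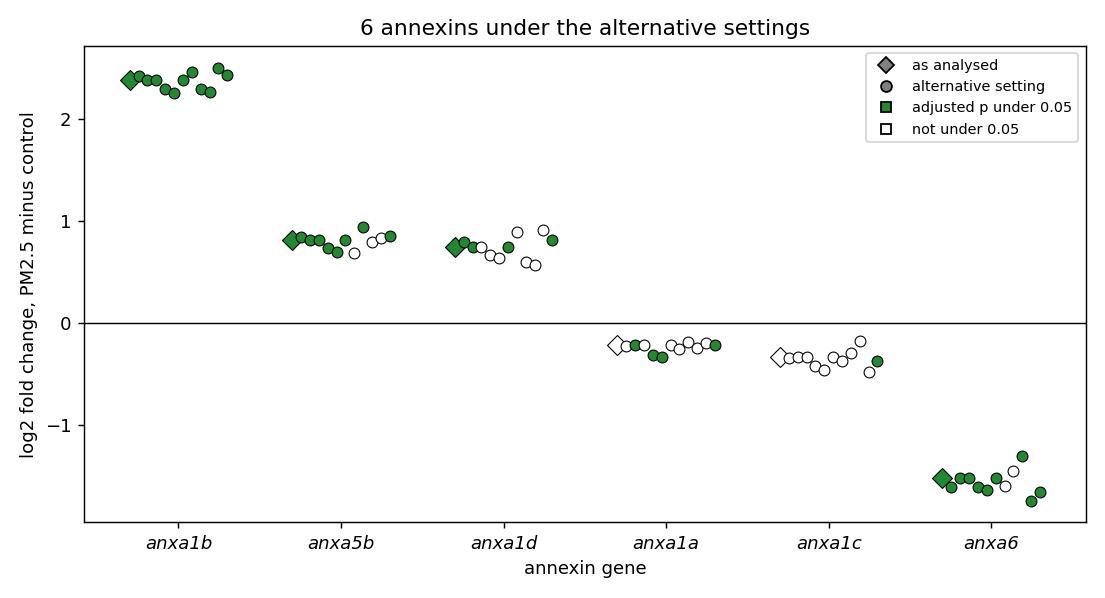
Log2 fold change (PM2.5 minus control) of the 6 annexins with the smallest p, as analysed (diamond) and under 11 alternative settings (circles), filled where the adjusted p was under 0.05. All settings are filled for anxa1b, while anxa5b is filled in 8, anxa6 in 9 and anxa1d in 4 of the 11 alternatives.

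Of the 7 annexin genes outside the group of 10, all were tested. In the limma test 2 rose and none fell, against 8.46% and 2.62% of all tested genes. For a fall, none had an unadjusted p under 0.05, and voom on the reads called 3 higher and none lower. Of all 20790 genes in the voom fit, 2489 were called higher and 1211 lower. Their log2 fold changes ran from -0.18 to 1.06, with a median of 0.07. Among the 17 annexin genes anxa6 was the only one called lower with TPM as deposited and a minimum mean of 1 TPM, and with a minimum of 5 TPM anxa1a was called lower too. Related annexins may share reads, and how the authors counted reads that match several places is not given in the sources used here, so single values within a subfamily carry that uncertainty.

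Binding partners were read from lists of related genes, chosen with earlier results of these data known. Counts in these lists are therefore no independent test. S100 proteins are small calcium-binding proteins, some of which bind annexins in mammals, S100A10 to annexin A2 and S100A11 to annexin A1. Of 14 S100 genes 7 rose and 1 fell, against 8.46% and 2.62% of all tested genes, and the median log2 fold change was 0.37. The 7 became 4 with TMM-type rescaling, 5 with quantile normalization and 6 with no filter. They became 8 with a mean of at least 5 TPM and with voom on the reads. All genes called higher went from 1766 to 1274 with TMM-type rescaling and to 2489 with voom. With any 1 library left out, fewer S100 genes were called higher, and so were fewer of all tested genes. The fall, of icn2, was not called when either control was left out. The smallest p belonged to s100u (17.4 and 17.1 TPM in controls, 54.7 and 61.5 TPM after exposure, log2 fold change 1.69) and s100v1 (35.8 and 37.8 against 81.7 and 81.6 TPM, 1.13), and both kept their calls under all 11 alternatives.

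The S100A10 genes differed from each other. The gene s100a10b rose from 139 and 137 TPM to 221 and 205 TPM, a log2 fold change of 0.62 (limma adjusted p = 0.0024), and kept its call in 9 of 11 alternatives, with the highest adjusted p at 0.056. The gene s100a10a had 67.3 and 68.7 TPM in controls and 63.6 and 57.7 TPM in exposed larvae, with a log2 fold change of -0.16 (limma adjusted p = 0.25). The ratio of s100a10b to s100a10a was 2.06 and 2.0 in controls and 3.47 and 3.55 in exposed larvae. Set against the summed annexin A2 transcripts, the summed S100A10 transcripts stood at 1.63 and 1.72 in controls and 1.94 and 2.04 in exposed larvae. The gene s100a11 rose from 28.6 and 21.0 TPM to 42.7 and 69.9 TPM (log2 fold change 1.13, limma adjusted p = 0.039). The exposed libraries of s100a11 were far from each other, and its call held in 4 of 11 alternatives, with adjusted p-values up to 0.27.

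Genes of membrane repair other than annexins included calpains, which are proteases opened by calcium, the ESCRT proteins that pinch off damaged membrane, and EHD and caveolar proteins. Of 23 tested genes 12 rose and none fell in the limma test, against 8.46% and 2.62% of all tested genes. The median log2 fold change was 0.50. This list too was chosen with earlier results of these data known, so its counts are no independent test. Among the 23 genes, 1 had an unadjusted p under 0.05 for a fall, and voom on the reads called 14 higher and 1 lower. Of all 20790 genes in the voom fit, 2489 were called higher and 1211 lower. With any 1 library left out, fewer of these genes were called higher, and so were fewer of all tested genes. The smallest p belonged to chmp4bb, an ESCRT gene (48.5 and 46.7 TPM in controls, 95.3 and 91.3 TPM after exposure, log2 fold change 0.95). It kept its call under all 11 alternatives. Next came the calpain gene capn2l (18.6 and 18.5 against 40.9 and 38.0 TPM, 1.05), whose call was lost in 1 of 11 (adjusted p 0.052).

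**Figure D5:**
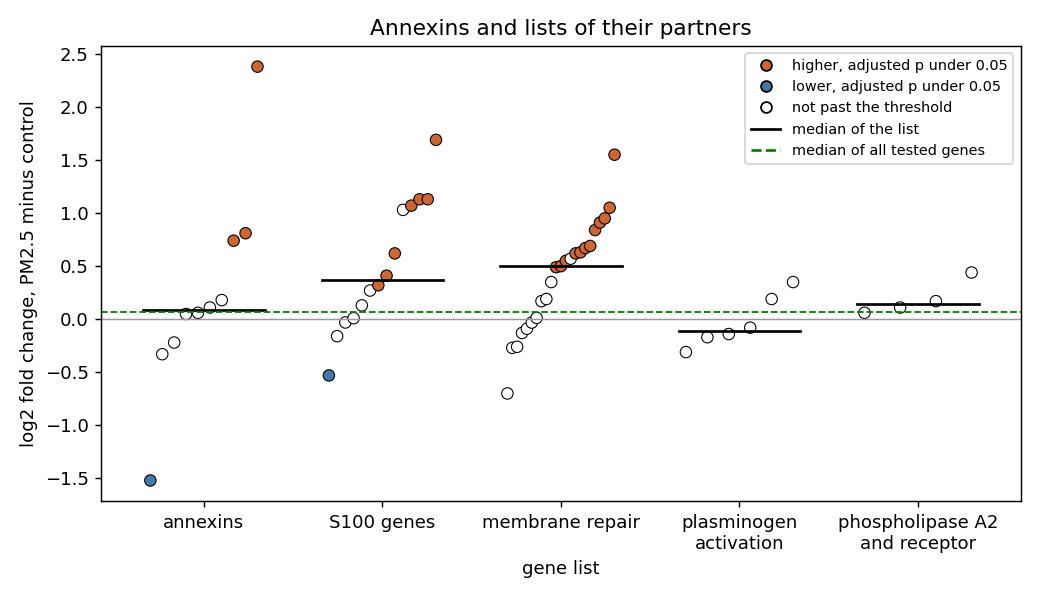
Log2 fold changes (PM2.5 minus control) of the tested genes of 5 lists, each point a gene, orange for called higher, blue for called lower and white for not past the threshold. The thick line is the median of a list, 0.08 for annexins, 0.37 for S100 genes and 0.50 for membrane repair genes, and the dashed line is the median of all tested genes.

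Genes that annexins touch outside the cell and in lipid signalling showed no call. In mammals annexin A2 with S100A10 gathers plasminogen at the cell surface. Of 6 tested genes of plasminogen activation none passed the limma test, against 11.1% of all tested genes. Among the 6, 1 had an unadjusted p under 0.05 and voom on the reads called none. The gene of plasminogen itself, plg, had 43.8 and 43.1 TPM in controls and 38.8 and 38.4 TPM after exposure, with a log2 fold change of -0.17. Of 4 tested genes for phospholipases A2 and a formyl peptide receptor none passed, and none had an unadjusted p under 0.05. Lists of 6 and 4 genes are too short to tell no call apart from the share over all genes. The receptor gene fpr1, named here for its low level, had 0.688 and 1.03 TPM in controls. It had 1.66 and 0.625 TPM after exposure, from 7, 8, 21 and 5 reads. The cytosolic phospholipase gene pla2g4aa had a log2 fold change of 0.44 and pla2g15 one of 0.06, and voom on the reads called none of the 4.

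Markers of other cell types moved with the groups, and their part in the annexin results was not tested. Of 16 markers of epidermis and periderm 8 rose and 6 fell, against 8.46% and 2.62% of all tested genes. The summed level of the 16 was 16216 and 15981 TPM in controls and 8230.3 and 8341 TPM in exposed larvae. This sum follows the 6 that fell, which were all abundant keratin genes, such as krt4 (means of 4965 and 1964 TPM). The 8 that rose had lower control levels, such as cdh1 (means of 22.1 and 50.4 TPM). The log2 fold changes of the 16 markers ran from -2.71 to 4.01, and each marker had a level above 1 TPM in at least 1 library. Of 8 tested macrophage markers 2 rose and none fell in the limma test, with none lower at an unadjusted p under 0.05 or with voom on the reads. The summed level of the 9 listed was 25.6 and 26.1 TPM in controls and 107 and 115 TPM in exposed larvae. Most of that rise was in a single gene, mpeg1.2, while c1qb was listed at 0 in PM2.5 replicate 2.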

How the data were processed

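RNA of whole zebrafish larvae was measured in 4 libraries, grouped by their titles. Per the submitters' processing notes the tools were cutadapt 1.18 and STAR 2.6.1c with build GRCz11, and the labels' protocols give 150-base reads and an RNA integrity number above 7.8. The labels name more than 1 extraction kit and more than 1 sequencer model. Which was used for which library is not settled, so a difference between the groups in these cannot be told. The sources used here name no counting program, annotation, gene lengths or strand setting. The table the authors deposited holds TPM in 32925 rows, of which 405 repeated a gene ID with the same TPM and were used once.

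In R 4.3.3, limma 3.58.1 was run on log2(TPM + 1) of the genes whose mean reached 1 TPM (group as the only term, intensity trend, two-sided, Benjamini-Hochberg adjustment). Fold changes on this scale understate those of low genes. Whole reads were sought up to 200000 with a tolerance of 0.0001 reads, which was wider for high read numbers. Such reads were found for 25325 of 25331 genes above 0 in at least 2 libraries. Counting error is the only error they describe. The test and the read search were tested on simulated data.

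All 10 annexins are named. From each partner list the 2 genes with the smallest p are named, with every s100a10 and s100a11 gene. A gene that this rule takes is not reported here by name. Members and lists (S100, plasminogen activation, membrane repair, phospholipase A2, 9 marker lists) were chosen with earlier results of these data known. Alternatives were a pseudocount of 0.1 TPM, a mean of at least 5 TPM, no filter, TMM-type rescaling, quantile normalization, a replicate block, leaving out each library and, added after seeing the data, voom on the reads. Partner lists and their genes were run under these alternatives after seeing the data. Sequences were not used here, and neighbouring genes came from a RefSeq table (assembly GRCz12tu).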

Additional observations from a re-analysis of the deposited data

How the results depend on the processing

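With 1 library left out, the lone library of a group is assumed to vary like the others. The genes called higher numbered 286 to 371 in these fits against 1766 with all libraries, the genes called lower 70 to 124 against 547, the annexins called higher 1 to 2 against 3, and the annexins called lower 0 to 1 against 1. The genes called lower were 962 after quantile normalization and 1211 with voom on the reads. The annexins called lower were 2 with a mean of at least 5 TPM and under either rescaling (TMM-type or quantile), where anxa1a joined anxa6, and 3 with voom on the reads, where anxa1c joined as well. The sign of the log2 fold change turned for anxa2b (-0.029 after TMM-type rescaling, -0.06 after quantile normalization), anxa13 (-0.039 and -0.07), anxa4 (-0.037 after quantile normalization) and pla2g15 (-0.03 and -0.08). TMM-type rescaling moved the median of all tested genes by -0.08 and quantile normalization by -0.11. The cause of the turned signs was not tested, and none of the turned values passed the threshold. The replicate numbers of the titles are shared by the groups. The deviations of same-numbered libraries from their group means had a correlation of 0.0654 across genes. With 2 libraries a group, this value cannot tell whether same-numbered libraries also shared a clutch or an exposure. With the replicate block 2072 genes were called higher and 781 lower, and 3 annexins higher and 1 lower. Depth limits anxa1d most, with 91 reads in control replicate 2.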

Other observations

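The spread between libraries of a group was set against counting error through the reads, as the log ratio of the TPM of the 2 libraries divided by its counting standard error. In controls this difference was between 0.3 (anxa2b) and 2.7 (anxa5b) counting standard errors for the 10 annexins. In exposed larvae it was 5.4 for anxa1b, 4.6 for anxa2a, 3.9 for anxa1c and 3.5 for anxa6, and between 0.5 and 2.6 for the other 6. The counting standard error shrinks as reads grow, so these values alone do not compare the spread of the groups. The exposed libraries had more anxa1b reads, and the fold difference between its replicates was similar in both groups. For anxa2a, anxa1c and anxa6 that fold difference was larger in exposed larvae, and for anxa5b it was larger in controls. Libraries of a group thus differed in some annexins by more than counting error, among them anxa5b in controls. Among exposed libraries anxa1b, anxa1d and anxa2a were higher in PM2.5 replicate 1, while anxa1c and anxa6 were higher in PM2.5 replicate 2.

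Other marker lists gave these counts in the limma test, to be read beside 8.46% of all tested genes called higher and 2.62% called lower. Of 9 gut epithelium markers 1 rose and 3 fell. Of 6 liver markers none rose, at an unadjusted p under 0.05 or with voom on the reads either, and 2 fell. Of 5 tested neutrophil markers 1 rose and none fell, while 1 was lower at an unadjusted p under 0.05 and was called lower with voom on the reads. None of 4 tested endothelial, 5 nervous system and 4 tested hair cell markers passed. Of these, 1 nervous system and 1 hair cell marker had an unadjusted p under 0.05, and voom on the reads called 1 of each list lower and no endothelial marker.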
